A study of Mus musculus with 12 samples.

Results

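The 40 genes described here form the G2/M and mitosis group of the mouse transcriptome: the genes whose products carry a cell from late G2 through chromosome segregation and cytokinesis. They were taken by gene symbol from the complete expression tables of both genotypes. All 40 were listed in both tables, among 13768 genes listed for either genotype and 12590 listed for both. The cells were C2C12, a mouse muscle precursor line that proliferates in culture and can be induced to fuse into myotubes. The study sequenced 4 groups: polysomal RNA of Ddx27-/- (knockout) cells, total RNA of Ddx27-/- cells, polysomal RNA of wild-type (WT) cells and total RNA of WT cells. The Ddx27 protein is an RNA helicase of the nucleolus that takes part in making ribosomal RNA, and polysomal RNA is the RNA that sediments with several ribosomes on one transcript. The labels name no drug, no added serum condition and no clone for any group, so the number of clones behind the knockout is not given in the sources used here. Values were analysed for 3 knockout polysomal, 2 knockout total, 3 WT polysomal and 3 WT total libraries. Nothing in the labels ties the libraries of a group to separate cultures, so p-values here measure the spread between these samples only, which may be technical.

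Entry into mitosis is driven by the kinase Cdk1 bound to an A- or B-type cyclin, held back by inhibitory phosphates that the Cdc25 phosphatases remove. Polo-like and Aurora kinases then build the spindle, the kinetochore attaches chromosomes to it, and the anaphase-promoting complex ends mitosis by sending cyclin B and securin to the proteasome. Most of these genes are transcribed late in the cell cycle, through promoters bound by the DREAM and MuvB complexes at cell cycle homology region (CHR) elements and by NF-Y at neighbouring boxes, so their mRNAs together are known as a marker of dividing cells, and myoblasts leave the cycle before they fuse.

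The libraries held 13683674 to 27347878 reads in listed genes, 45335 to 138713 of them in the 40 members. Values below are normalised read counts, and those set between genotypes are on 1 common scale. Ddx27 itself, the targeted gene, had 54.3, 42.6 and 31.6 normalised read counts in knockout polysomal libraries 1 to 3 and 41.9 and 47.5 in the knockout total libraries, against 200, 142 and 203 in the WT polysomal and 145, 139 and 136 in the WT total libraries, so it was lower in every knockout library and still present. Counts per gene do not show which part of the gene these reads cover. Gene models that collect ribosomal RNA sequence took 23.1, 32.7 and 0.385% of reads in knockout polysomal libraries 1 to 3 and 5.91, 14.5 and 0.674% in WT polysomal libraries 1 to 3, but at most 0.135% in total RNA. The myoblast factor Myod1 was nearly missing from the knockout, with 0, 0 and 0.0869 normalised read counts in polysomal and 0.383 and 1.2 in total RNA, against 65.6, 97.9 and 75.0 in WT polysomal and 132, 133 and 173 in WT total RNA. Another myoblast factor gene, Myf5, was present in both genotypes, at 113 and 129 in knockout total and 56.0, 68.2 and 58.8 in WT total RNA.

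Promoters of the group are shown for 4 members. By limma Anln and Top2a were lower both in knockout total RNA and in WT polysomes relative to total RNA, and Plk1 only in knockout total RNA. Ccnb2 was called in neither of these comparisons by limma, though under some alternatives. A link between promoter letters and these changes was not tested. The windows run from 250 bases before to 50 bases from the annotated start, are read 5′ to 3′ on the gene's strand and come from RefSeq on GRCm38.p6, the mm10 build. Capitals mark every match, on either strand, to the NF-Y box CCAAT (reverse ATTGG) and to 2 forms of the CHR element, TTTGAA (reverse TTCAAA) and TTTAAA, which is its own reverse. Anln lies on the minus strand at chr9:22389157-22389456, Top2a on the minus strand at chr11:99024140-99024439, Plk1 on the plus strand at chr7:122159185-122159484 and Ccnb2 on the minus strand at chr9:70421505-70421804.
Anln: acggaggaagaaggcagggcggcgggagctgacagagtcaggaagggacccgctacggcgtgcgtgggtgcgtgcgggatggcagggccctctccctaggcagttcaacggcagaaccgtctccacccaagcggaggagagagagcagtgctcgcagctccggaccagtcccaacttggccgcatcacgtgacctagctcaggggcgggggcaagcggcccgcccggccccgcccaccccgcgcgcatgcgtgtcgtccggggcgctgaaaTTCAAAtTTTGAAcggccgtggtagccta
Top2a: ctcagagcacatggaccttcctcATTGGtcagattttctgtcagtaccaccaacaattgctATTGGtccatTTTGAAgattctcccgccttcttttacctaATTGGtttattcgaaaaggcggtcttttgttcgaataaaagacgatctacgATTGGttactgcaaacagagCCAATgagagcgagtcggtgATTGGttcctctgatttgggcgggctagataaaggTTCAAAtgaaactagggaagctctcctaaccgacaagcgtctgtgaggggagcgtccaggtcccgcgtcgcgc
Plk1: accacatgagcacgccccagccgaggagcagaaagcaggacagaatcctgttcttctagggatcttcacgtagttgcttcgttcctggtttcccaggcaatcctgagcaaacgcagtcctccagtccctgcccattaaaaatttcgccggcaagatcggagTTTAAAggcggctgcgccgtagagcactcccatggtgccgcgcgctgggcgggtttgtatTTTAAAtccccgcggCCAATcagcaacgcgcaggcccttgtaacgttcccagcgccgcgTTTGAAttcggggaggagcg
Ccnb2: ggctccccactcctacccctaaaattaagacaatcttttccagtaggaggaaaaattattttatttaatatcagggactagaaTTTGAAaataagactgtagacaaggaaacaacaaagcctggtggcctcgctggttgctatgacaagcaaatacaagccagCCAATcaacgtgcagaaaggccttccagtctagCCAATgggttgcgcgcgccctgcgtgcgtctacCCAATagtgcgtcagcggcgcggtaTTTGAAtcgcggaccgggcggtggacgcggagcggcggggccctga

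With the start counted as 0, Ccnb2 held CCAAT boxes that begin at −87, −54 and −21, each 33 bases from its neighbour, and CHR letters that begin at −167 and 4. Top2a held 6 boxes, from −227 to −58, with CHR letters at −179 and −23. Plk1 held 1 box at −14, TTTAAA at −89 and −29 and TTTGAA at 30. Anln held no box and 2 CHR matches, at 21 and 28, 1 on each strand, with 1 base between them.

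RefSeq windows were found for 34 of the 40 members, as 36 windows. At least 1 NF-Y box stood in 80.6% of member windows, in 38.0% of the 11073 windows of genes listed for both genotypes and in 37.4% of all 32851 mouse windows. At least 3 boxes stood in 33.3% of member windows, 5.09% of windows of listed genes and 3.37% of all windows. Either CHR form stood in 83.3% of member windows, 18.9% of windows of listed genes and 27.6% of all windows, and a box together with a CHR form in 69.4, 7.47 and 10.7%. The member windows held 119 matches in all, of which 2 neighbouring pairs overlapped. The letters show only what stands in these windows, not which of them is bound in these cells.

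**Figure D1:**
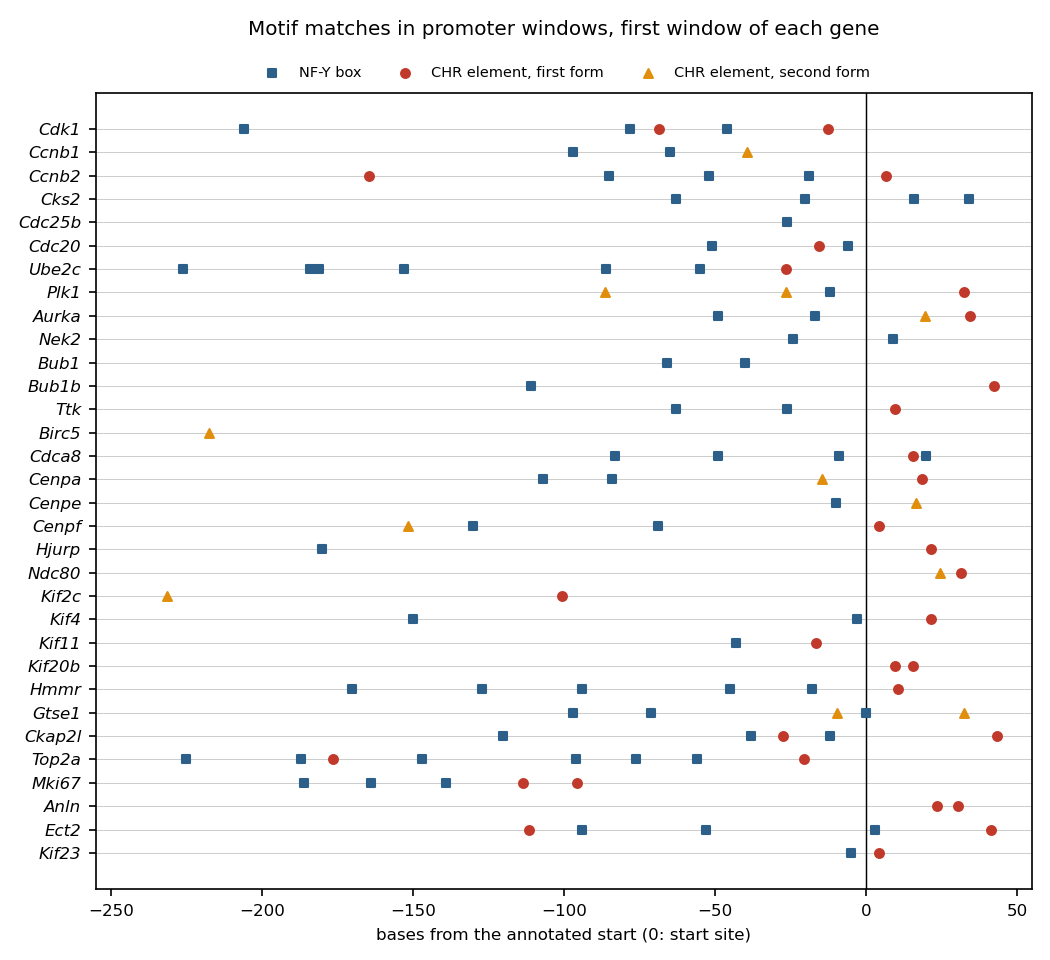
Positions of NF-Y boxes and of the 2 forms of the CHR element (centre of each match, both strands) in the first promoter window of each member with a match, in bases from the annotated start. Ccnb2 carries 3 boxes and Top2a 6, all upstream of the start, and Anln carries none.

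Per kilobase of gene length, the only scale on which genes are set against each other, the group spanned a wide range of levels. In WT total RNA the highest member was Kif20a, a cytokinesis kinesin, at 92.1 ± 11.1 normalised read counts per kilobase (SD, n = 3), followed by Cdc20, the activator of the anaphase-promoting complex, at 77.2 ± 3.60 and Cdk1 at 72.1 ± 3.69. Cdc20 and Cdk1 did not differ beyond their spread. The lowest were Cks2, a small docking subunit of the kinase, at 1.35 ± 0.526 and Ccnb1, one of the B-type cyclins, at 3.49 ± 0.422, with a median over members of 24.0. In knockout total RNA the median was 13.9, and Cdk1 stood highest at 68.5 ± 20.3 (SD, n = 2), with Cdc20 at 67.7 ± 13.8 and Ube2c at 58.5 ± 26.5. Ube2c, the E2 enzyme of the anaphase-promoting complex, had the highest mean in polysomal RNA of both genotypes. It stood at 72.9 ± 24.5 in the knockout and 153 ± 88.5 in the WT (SD, n = 3 each). The next means, Ccnb2 at 64.7 ± 9.61 in the knockout and Cdk1 at 103 ± 12.9 in the WT, lay within its spread. Cks2 was lowest in knockout polysomal RNA at 2.83 ± 0.709. In WT polysomal RNA Ccnb1 had the lowest mean at 3.92 ± 1.33, but Cks2, at 4.65 ± 3.29, did not differ from it beyond the spread. Reads that match near-identical copies of a gene elsewhere in the genome make a level uncertain, and how such reads were counted is not given in the sources used here.

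The 40 genes together took a smaller share of reads in knockout total RNA. Outside the rRNA-like models they took 0.420 ± 0.0625% of reads in knockout polysomal RNA (SD, n = 3) and 0.338 ± 0.00338% in knockout total RNA (SD, n = 2), against 0.539 ± 0.0757% in WT polysomal and 0.516 ± 0.0125% in WT total RNA (SD, n = 3 each). In total RNA both knockout libraries lay far below all 3 WT libraries, and in polysomal RNA the genotypes overlapped. In bulk RNA, fewer dividing cells and less of each mRNA per cell cannot be told apart.

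**Figure D2:**
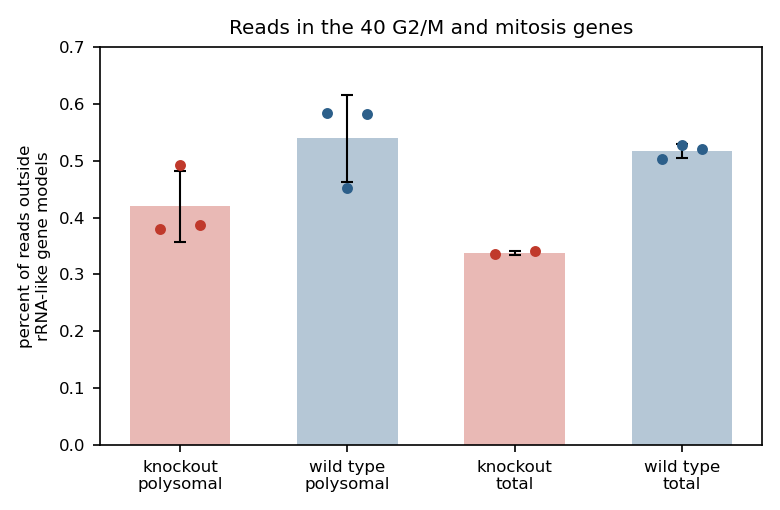
Percent of each library's reads outside rRNA-like gene models that fell in the 40 members (points: libraries, bars: means, error bars: SD), by fraction with knockout left of WT. Knockout total RNA averaged 0.338% and WT total RNA 0.516%, while the polysomal libraries spread more widely and overlap.

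In total RNA, loss of Ddx27 went with lower levels across the group. By limma with Benjamini-Hochberg adjustment over all genes tested, 23 of the 39 members tested fell and 0 rose. Cks2 was too low to be tested. Over all 12003 genes 18.9% fell and 17.9% rose, so the group held many more falls and fewer rises than the background. The members' median log2 fold change was −0.57, against −0.02 over all genes, and 36 of 39 fold changes were negative. All knockout libraries lay below all WT libraries for 31 of 39 members, where 34.0% of all genes did so. The median member lay at −0.65 in knockout library 1, with 39 of 39 below the WT mean, and at −0.58 in library 2, with 33 of 39 below it.

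The cytokinesis genes held the largest fall. Anln, the anillin scaffold of the contractile ring, had 156 and 130.3 normalised read counts in knockout total RNA, against 296, 311 and 337 in WT total RNA. Both knockout values lay far below every WT value, and the log2 level of Anln fell by 1.13 ± 0.14 (SE of the fit to 2 knockout and 3 WT libraries, adjusted p = 0.00145). Ect2, the exchange factor that switches on RhoA at the cleavage furrow, had 47.5 and 31.9 in the knockout, against 75.9, 76.4 and 75.0 in the WT. Kif20a, a motor of the central spindle, had 207 and 200.5 in the knockout, against 310.1, 316 and 386 in the WT. Neither gene overlapped between genotypes, and they fell by 0.94 ± 0.18 (adjusted p = 0.00735) and 0.72 ± 0.15 (adjusted p = 0.00901). Kif23, the motor subunit of centralspindlin, stood at −0.37 ± 0.13 (adjusted p = 0.0557), with no overlap.

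Among centromere and kinetochore genes 3 of 6 fell. Cenpe, the kinetochore kinesin, had 38.8 and 36.9 in knockout total RNA, against 71.4, 83.8 and 77.5 in WT total RNA, and fell by 1.01 ± 0.14 (adjusted p = 0.00216). Hjurp, the chaperone that loads the centromeric histone, had 105 and 84.5 in the knockout, against 187, 184 and 175 in the WT, and fell by 0.94 ± 0.14 (adjusted p = 0.00318). Cenpf, a large kinetochore protein, had 51.4 and 36.5 in the knockout, against 75.6, 83.0 and 74.2 in the WT. In all 3 genes the knockout libraries lay below all WT libraries, and Cenpf fell by 0.83 ± 0.17 (adjusted p = 0.0099). With the trend of fold change on gene length removed, Cenpe stood at −0.67, Hjurp at −0.59 and Cenpf, the longest member, at −0.34 (adjusted p = 0.0065, 0.00404 and 0.047). Cenpa, the centromeric histone itself, stood at −0.41 ± 0.19 (adjusted p = 0.114). The microtubule-binding partners Ndc80 and Nuf2 stood at −0.20 ± 0.16 and −0.40 ± 0.16 (adjusted p = 0.333 and 0.0865).

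Spindle genes fell for 5 of 9 members. Kif2c, a kinesin that takes microtubules apart, had 37.3 and 41.6 in knockout total RNA, against 75.2, 76.9 and 89.3 in WT total RNA. Ckap2l, a spindle protein, had 54.3 and 42.1 in the knockout, against 78.2, 85.1 and 105 in the WT. Both genes were separated between genotypes, with falls of 1.01 ± 0.15 (adjusted p = 0.00267) and 0.88 ± 0.18 (adjusted p = 0.00901). Tpx2, which activates Aurora A on the spindle, had 137 and 124 in the knockout, against 206, 217 and 248 in the WT. For Gtse1, a microtubule-binding protein of G2 and mitosis, the knockout had 53.1 and 55, against 83.7, 87.7 and 101 in the WT. Kif4, a chromosome-bound kinesin, had 51.7 and 49.8 in the knockout, against 81.1, 81.7 and 73.8 in the WT. None of the 3 overlapped between genotypes, and they fell by 0.77 ± 0.14, 0.74 ± 0.14 and 0.62 ± 0.13 (adjusted p = 0.00622, 0.00754 and 0.0103). Of the members that did not pass, the bipolar spindle motor Kif11, Hmmr and Kif20b ranged from −0.38 to −0.25. Nusap1, a microtubule-bundling protein, stood at 0.13 ± 0.17 (adjusted p = 0.555).

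Of the mitotic kinases and checkpoint genes 5 of 6 fell. Nek2, a kinase that separates centrosomes, had 48.5 and 38.6 in knockout total RNA, against 83.6, 83.2 and 74.9 in WT total RNA, and fell by 0.88 ± 0.15 (adjusted p = 0.00524). The checkpoint kinase Bub1 had 38.5 and 41.6 in the knockout, against 68.8, 67.2 and 67.1 in the WT, and its partner Bub1b had 81.4 and 70.5, against 124, 124 and 117. They fell by 0.74 ± 0.13 and 0.67 ± 0.13 (adjusted p = 0.00563 and 0.00818), again with no overlap. Plk1, the polo-like kinase, had 85.8 and 101 in the knockout, against 129, 130.0 and 171 in the WT, and fell by 0.60 ± 0.17 (adjusted p = 0.0269). Ttk, the kinase at the top of the spindle checkpoint, fell by 0.52 ± 0.16 (adjusted p = 0.0372). Aurka, the Aurora kinase of the spindle poles, stood at −0.57 ± 0.22 (adjusted p = 0.072), its knockout libraries being far apart at 76.6 and 130.5.

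All 3 genes of chromosome structure fell. Mki67, which coats mitotic chromosomes and is the usual proliferation marker, had 115 and 119 in knockout total RNA, against 189, 239 and 252 in WT total RNA. Smc4, a core subunit of condensin, had 83.5 and 68.8 in the knockout, against 121, 132 and 113 in the WT. Top2a, the topoisomerase that untangles sister chromatids, had 366 and 313 in the knockout, against 478, 513 and 443 in the WT. The genotypes did not overlap in any of them, and the falls were 0.94 ± 0.16 (adjusted p = 0.00481), 0.68 ± 0.15 (adjusted p = 0.0111) and 0.49 ± 0.14 (adjusted p = 0.0292). With the length trend removed the calls of Mki67 and Top2a were lost, at −0.49 (adjusted p = 0.0566) and −0.08 (adjusted p = 0.6).

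The genes of mitotic entry were split. Cdc25b, a phosphatase that activates Cdk1, had 76.6 and 62.1 in knockout total RNA, against 129, 128 and 147 in WT total RNA, and fell by 0.95 ± 0.15 (adjusted p = 0.00365). Cdc25c, another such phosphatase, had 19.2 and 24.8 in the knockout, against 33.0, 38.5 and 38.2 in the WT, and Ccna2, the cyclin of S and G2 phase, had 129 and 160.4, against 195, 211 and 211. Their falls were 0.72 ± 0.17 and 0.51 ± 0.14 (adjusted p = 0.0148 and 0.0266), with no overlap. Cdk1 itself had 212 and 324 in the knockout, against 271, 258 and 247 in the WT. Ccnb1 had 14.3 and 16.9 in the knockout, against 18.8, 16.6 and 14.9 in the WT. In both genes 1 knockout library lay below all WT libraries and the other did not, with fold changes of 0.02 ± 0.19 (adjusted p = 0.949) and −0.10 ± 0.18 (adjusted p = 0.681). Ccnb2, whose promoter carries the evenly spaced boxes, stood at −0.39 ± 0.15 (adjusted p = 0.0673), and at −0.74 (adjusted p = 0.00257) with the length trend removed.

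The passenger complex and the anaphase-promoting complex held 1 fall among 5 genes. Aurkb, the Aurora kinase of the passenger complex, had 52.8 and 78.3 in knockout total RNA, against 76.4, 83.6 and 91.4 in WT total RNA. Birc5, the survivin subunit, had 93.7 and 188 in the knockout, against 104, 113 and 131 in the WT. The knockout libraries of both genes were far apart and overlapped the WT range or, for Birc5, lay on both sides of it, at −0.37 ± 0.19 and 0.20 ± 0.27 (adjusted p = 0.146 and 0.575). Cdca8, the borealin subunit, fell by 0.57 ± 0.19 (adjusted p = 0.0493), a call lost under 12 of 17 alternatives. Cdc20 and Ube2c stood at −0.08 ± 0.16 and −0.07 ± 0.26 (adjusted p = 0.703 and 0.844).

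**Figure D3:**
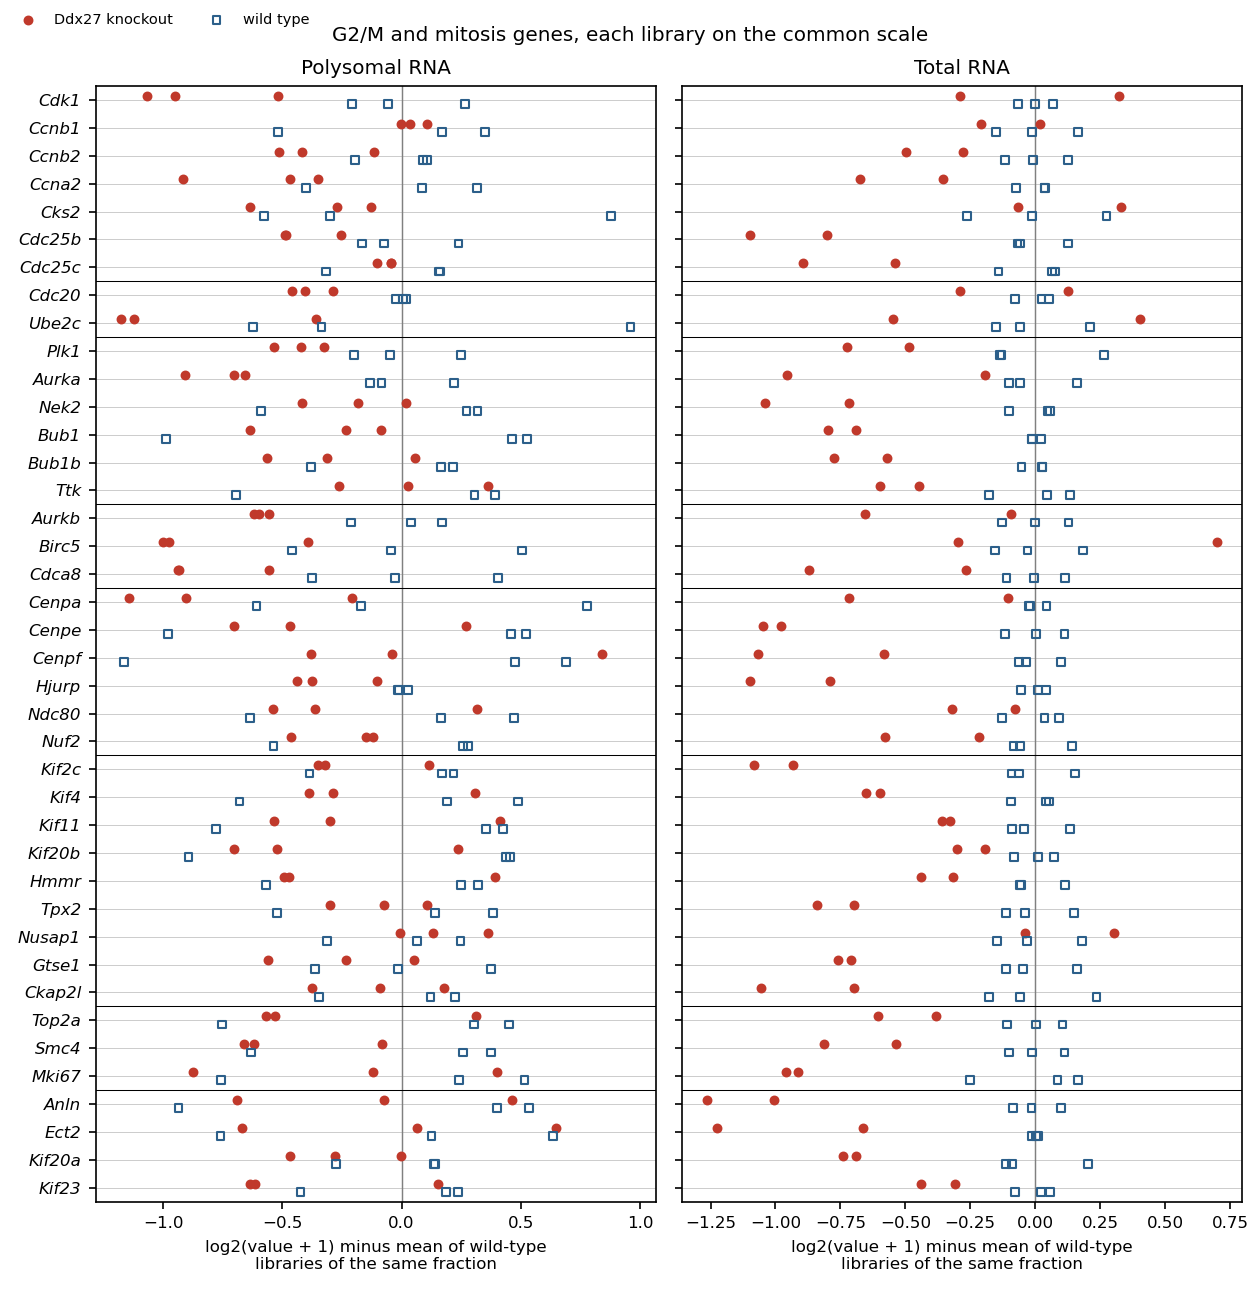
Each library's log2(value + 1) minus the mean of the WT libraries of the same fraction, for the 40 members ordered by role (filled circles: knockout, open squares: WT). In total RNA (right) Anln, Cenpe and Kif2c have the lowest fold changes with no overlap, and Birc5, Cdk1 and Ube2c have 1 knockout library on each side. In polysomal RNA (left) most members overlap between genotypes.

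Both knockout total libraries differed from WT total RNA in a trend on gene length, with log2 slopes of −0.14 and −0.368 for each doubling of length over 12003 genes, so that long genes read low in them. Members are long, with a median of 4198.5 bases against 3440.5 for all listed genes, and across the 39 members the fold change and log2 length had a Pearson r of −0.40 and a Spearman rho of −0.40 as a description, all points sharing the same libraries. With that trend removed 28 members fell, 20 of the 23 among them, where 18.5% of all genes fell. Top2a, Mki67 and Cdca8 were no longer called, and Ccnb2, Aurka, Cenpa, Aurkb, Nuf2, Ndc80, Kif23 and Cdc20 were called as well. In 1 fit over all 11 libraries, where the spread of the polysomal libraries enters, 4 of 40 members fell, namely Kif2c, Cdc25b, Hjurp and Ckap2l. In that fit 5.79% of 12463 genes fell. Leaving out WT total replicate 1, 2 or 3 gave 17, 15 and 15 falls, where 10.5, 9.55 and 7.13% of all genes fell. Without knockout total library 1 or 2, 1 knockout library remained, and the members' median was −0.58 or −0.65. Without library 1, Cdk1, Ube2c and Birc5 stood at 0.32, 0.40 and 0.70.

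In total RNA, cell type markers moved with the genotype as well. The 6 of 8 myoblast markers listed for both genotypes summed to 1220 to 1352 normalised read counts in knockout total RNA and 2930 to 4014 in WT total RNA, and 4 of them fell and 1 rose. For differentiating muscle, 10 of 11 markers summed to 195 to 229 in knockout total RNA and 352 to 874 in WT total RNA, with 4 falls and 0 rises. Over all genes 18.9% fell and 17.9% rose in total RNA. Of fibroblast markers 2 of 5 were listed for both, summing to 16.2 to 20.9 in knockout and 25.2 to 40.7 in WT total RNA, and of leukocyte markers 1 of 4, Cd68, at 3.69 to 5.21 in knockout and 1.82 to 2.79 in WT total RNA. No adipocyte or endothelial marker was listed in either table. On polysomes the myoblast sums were 556 to 647 in the knockout and 890 to 1081 in the WT. Those of differentiating muscle, 19.2 to 31.5 and 20.6 to 33.8, overlapped, as did those of fibroblast markers, 7.52 to 11.6 and 2.89 to 8.47. Cd68 stood at 3.29 to 3.58 in knockout and 0.859 to 3.14 in WT polysomal RNA. Mitochondrially encoded genes took 1.40 and 1.93% of reads in knockout total RNA, against 0.976, 1.19 and 1.45% in WT total RNA. The part of these shifts in the fall of the mitotic genes was not tested.

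Between genotypes on polysomes, by limma 0 of 40 members rose and 0 fell, where 1.62% of 12184 genes rose and 0.952% fell. At an unadjusted p under 0.05 there were 5 members, or 12.5%, against 15.9% of all genes. DESeq2 called 2 lower, Cdk1 and Aurka, and edgeR 0, where they called 3.25 and 0.886% of all genes lower. The members' median was −0.27, and 35 of 40 fold changes were negative. It was −0.11 without WT replicate 1 or 3, −0.14 without knockout library 1, −0.46 without WT replicate 2, −0.43 without knockout library 2 and −0.52 without the 3 libraries over 10% rRNA-like reads. By library the members' median was −0.46, 0.04 and −0.39 in knockout polysomal libraries 1 to 3, so library 2 stood apart. These libraries held 23.1, 32.7 and 0.385% rRNA-like reads, and a link between that share and the medians was not tested. Knockout libraries lay below all WT libraries for 8 of 40 members, where 11.1% of all genes did so, namely Aurka, Aurkb, Cdc20, Cdc25b, Cdca8, Cdk1, Hjurp and Plk1.

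Cdk1 had 256, 190.2 and 175 normalised read counts in knockout polysomal RNA, against 354, 443 and 319 in WT polysomal RNA. All 3 knockout libraries lay below the lowest WT library, at −0.85 ± 0.25 (SE, 3 libraries against 3, adjusted p = 0.146 by limma and 0.0371 by DESeq2). Aurka had 96.6, 112 and 115 in the knockout, against 166, 172 and 212 in the WT, likewise without overlap, at −0.76 ± 0.21 (adjusted p = 0.126 by limma and 0.0124 by DESeq2). Aurkb had 62.6, 61.8 and 64.6 in the knockout, against 82.3, 98.2 and 107 in the WT. Plk1 had 89.6, 95.9 and 82.8 in the knockout, against 105, 144 and 116 in the WT. These were also separated, at −0.59 ± 0.20 and −0.43 ± 0.21 (adjusted p = 0.206 and 0.383). Ube2c had 289, 169.6 and 164 in the knockout, against 294, 723 and 240.3 in the WT, the value of 723 coming from the WT library with 14.5% rRNA-like reads.

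Anln and Mki67, which fell in total RNA, overlapped between genotypes on polysomes. Anln had 68.3, 153 and 105 in knockout polysomal RNA, against 147, 57.4 and 161 in WT polysomal RNA. Mki67 had 73.5, 179 and 125 in the knockout, against 160.5, 79.7 and 194 in the WT. In both, knockout library 2 was the highest of its group and WT library 2 the lowest of its group, at −0.10 ± 0.45 and −0.20 ± 0.42 (adjusted p = 0.944 and 0.863). Ccnb1 had 18, 19.6 and 18.5 in the knockout, against 20.4, 12.3 and 23.3 in the WT, an overlap at 0.05 ± 0.28. With the libraries over 10% rRNA-like reads left out, 1 knockout polysomal library remained, and the members' median was −0.52, with Kif20b at −1.15. No calls are given for that fit, since the spread of a lone library is unknown.

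**Figure D4:**
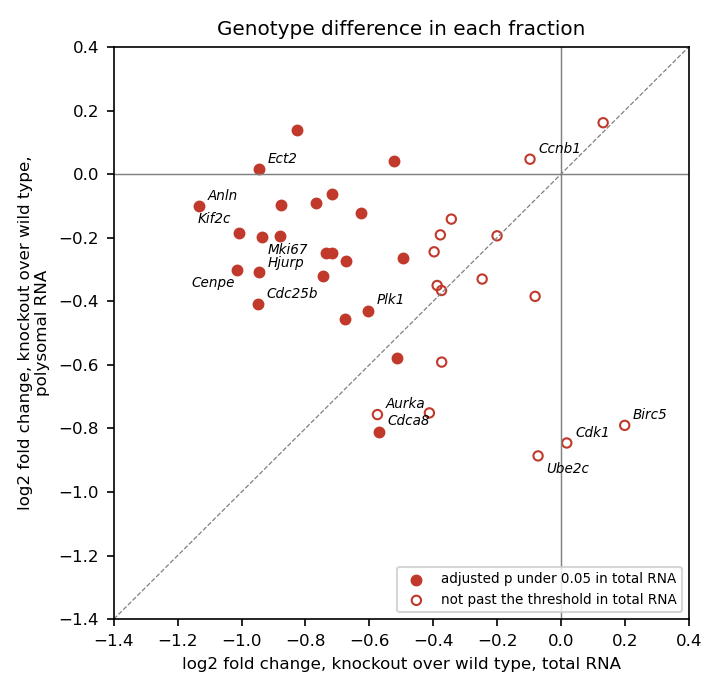
Log2 fold change of knockout over WT in total RNA (horizontal axis) and polysomal RNA (vertical axis) for the 39 members tested in total RNA (filled: adjusted p under 0.05 in total RNA, dashed line: equal change). Anln, Cenpe and Kif2c lie at −1.13, −1.01 and −1.01 in total RNA and at −0.10, −0.30 and −0.19 in polysomal RNA, and Cdk1, Ube2c and Birc5 lie between −0.07 and 0.20 in total RNA and between −0.89 and −0.79 in polysomal RNA.

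Within the knockout, polysomal RNA set against total RNA gave 0 of 40 members higher and 0 lower by limma, where 0.911% of 12070 genes were higher and 1.85% lower. At an unadjusted p under 0.05 there were 10 members, or 25%, against 22.7% of all genes. DESeq2 called 3 higher and 1 lower, where it called 4.45% of all genes higher and 6.22% lower. With edgeR it was 0, where 0.671% of all genes were higher and 1.84% lower. The median over members was 0.28, against 0.04 over all genes, and 27 of 40 were positive. It was 0.11 without knockout total library 1 and 0.12 without knockout polysomal library 2. Relative to the mean of total RNA the members' median was 0.05, 0.50 and 0.14 in polysomal libraries 1 to 3. In normalised read counts of the knockout's own table, Top2a had 120.2, 216 and 119.8 in knockout polysomal RNA, against 347 and 297 in knockout total RNA. All polysomal values lay below both total values, at −1.13 ± 0.30 (SE, 3 libraries against 2, adjusted p = 0.0855 by limma and 0.0183 by DESeq2). The authors' deposited table gives Top2a a log2 fold change of −1.08 with an FDR of 0.029, and 0 higher and 1 lower members past an FDR of 0.05 in all. Among genes on the high side, Cenpa stood at 0.92 ± 0.32, Ckap2l at 0.85 ± 0.26 and Nuf2 at 0.81 ± 0.24 (adjusted p = 0.145, 0.109 and 0.106).

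Within the WT, 2 of 40 members were higher in polysomal than in total RNA and 4 lower, where 8.89% of 12380 genes were higher and 13.8% lower, shares of members near or below the background. The median over members was −0.02, as over all genes, and 0.20 without WT polysomal replicate 2, −0.12 without replicate 1 and −0.11 without replicate 3. Birc5 had 280.1, 376 and 209 normalised read counts in WT polysomal RNA, against 107, 117 and 135 in WT total RNA, and rose by 1.23 ± 0.24 (SE, 3 libraries against 3, adjusted p = 0.0134). Cenpa had 236, 418 and 172 in polysomal RNA, against 113, 108 and 107 in total RNA, and rose by 1.22 ± 0.31 (adjusted p = 0.0296). For both, every polysomal library lay above every total library. Ube2c, at 312, 705 and 254 in polysomal RNA, against 159, 169 and 202 in total RNA, was separated too, at 1.12 ± 0.37 (adjusted p = 0.0639).

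The 4 members lower in WT polysomes were Anln, Top2a, Kif2c and Kif20a. Anln had 156, 56.0 and 170.3 in WT polysomal RNA, against 306, 322 and 345 in WT total RNA, and fell by 1.5 ± 0.40 (adjusted p = 0.0362). Top2a had 262, 104 and 235 in polysomal RNA, against 495, 531 and 454 in total RNA, and fell by 1.40 ± 0.34 (adjusted p = 0.0267). In each the second polysomal library was lowest, and no polysomal library reached a total one. Kif2c had 49.5, 29.5 and 47.5 in polysomal RNA, against 77.9, 79.5 and 91.6 in total RNA, and fell by 0.99 ± 0.23 (adjusted p = 0.0237). Kif20a had 229, 157 and 227 in polysomal RNA, against 321, 327 and 396 in total RNA, and fell by 0.78 ± 0.21 (adjusted p = 0.0354). The authors' deposited table holds 4 members higher and 4 lower at an FDR of 0.05. Quantile normalization gave 4 higher and 3 lower, where 11.7% of all genes were higher and 13.4% lower. CPM scaling without a planned set of 3 rRNA-like models gave 3 and 0, against 7.27 and 10% of all genes. That set did not hold all 4 models counted above. Without those 4 it was 4 and 2, against 10.5 and 10.5% of all genes. Leaving out any 1 WT total replicate left 0 members called, where 0.683 to 1.19% of all genes were higher and 3.11 to 3.6% lower. Without WT polysomal replicate 2, with 14.5% rRNA-like reads, 11 were higher and 5 lower, where 22.6% of all genes were higher and 24.6% lower. Ccna2, Nuf2 and Kif20b then joined the higher ones at 0.71, 0.93 and 0.93.

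Gene length ran through these values as well. Across the 40 members, polysomal over total fold change and log2 length had a Pearson r of −0.28 and a Spearman rho of −0.24 in the knockout, and −0.56 and −0.54 in the WT. These are descriptions, since all points of a genotype share its libraries. The 10 shortest members, up to 2825 bases, had a median of 0.42 in the knockout and 0.17 in the WT, and the 10 longest, from 5397 bases, 0.12 in the knockout and −0.66 in the WT. Over all genes the trend per doubling of length was −0.16, 0.171 and 0.109 in knockout polysomal libraries 1 to 3 and −0.231, −0.533 and −0.139 in the WT ones, so WT library 2 carried the steepest. With the trend removed, the 6 WT calls were kept and Nusap1 was added, where 10.3% of all genes were higher and 12.9% lower.

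**Figure D5:**
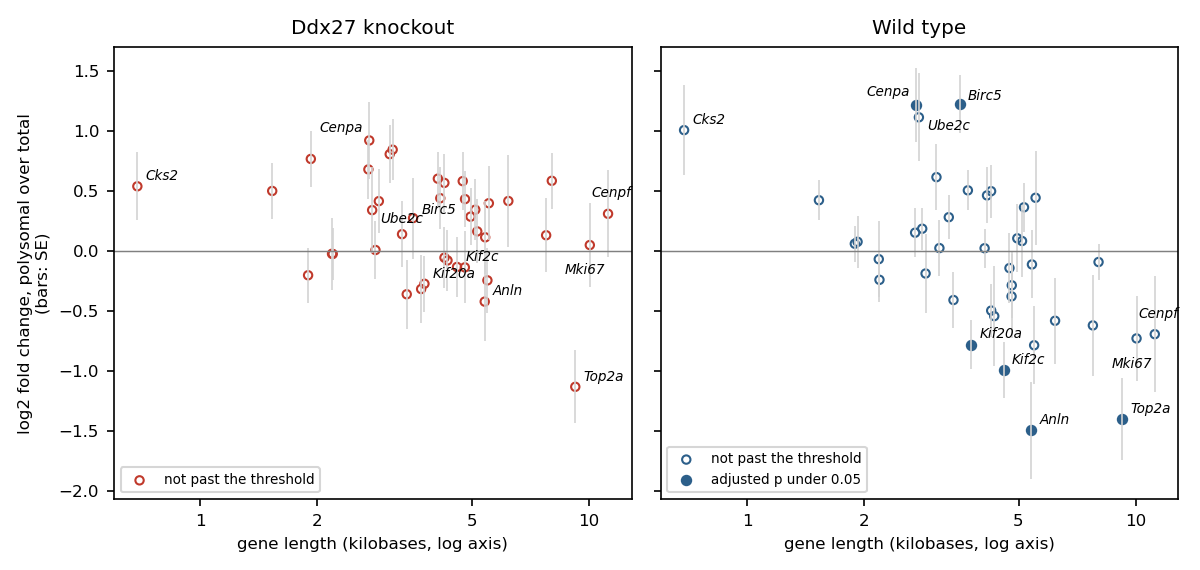
Polysomal over total RNA as a log2 fold change (bars: SE) against gene length on a log axis for the 40 members, knockout left and WT right (filled: adjusted p under 0.05). In the WT Birc5 and Cenpa stand highest and Anln and Top2a lowest, and in the knockout no member is past the threshold by limma and Top2a is lowest at −1.13.

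The test of the difference between genotypes in polysomal over total RNA, knockout minus WT, called 0 of 40 members in either direction by limma, and 0 by DESeq2 and by edgeR. At an unadjusted p under 0.05 there were 5 members, or 12.5%, against 20.7% of all genes. Over 12463 genes limma called 0.193% higher and 0.0481% lower, DESeq2 3.92 and 3.71%, and edgeR 0.177 and 0.0722%. The members' median was 0.21, against 0.05 over all genes. It was 0.01 without WT polysomal replicate 2 and 0.12 without knockout polysomal library 2, and between 0.33 and 0.37 without WT polysomal replicate 1 or 3, knockout total library 1 or knockout polysomal library 1 or 3. Anln and Cenpf stood highest, at 1.03 ± 0.56 and 0.96 ± 0.66 (adjusted p = 0.302 and 0.4), and Birc5 and Cdk1 lowest, at −0.99 ± 0.46 and −0.86 ± 0.33 (adjusted p = 0.245 and 0.184).

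Complex partners did not keep 1 ratio in every library. Per kilobase, the log2 ratio of Ndc80 to Nuf2, which form a dimer, was −0.935, −0.579 and −1.44 in knockout polysomal and −0.445 and 0.175 in knockout total RNA, and −0.806, −1.15 and −1.14 in WT polysomal and −0.238, −0.383 and −0.379 in WT total RNA. It was lower in each polysomal library than in every total library of the same genotype. Aurkb to Cdca8, both of the passenger complex, held between 0.593 and 1.04 in the knockout and between 0.269 and 0.836 in the WT over both fractions. Aurkb to Birc5 ranged from −1.4 to −0.508 in the knockout and from −1.65 to −0.115 in the WT.

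Of other genes of the pathway, 143 in 5 lists were tested, and in knockout against WT total RNA 57 fell and 10 rose, with a median of −0.33. Over all genes 18.9% fell and 17.9% rose, with a median of −0.02. Falls and rises were 12 and 4 of 30 for G2/M regulators, 12 and 0 of 24 for condensin, cohesin and separation, 18 and 2 of 37 for spindle and cytokinesis, 10 and 2 of 35 for kinetochore, centromere and checkpoint, and 5 and 2 of 17 for the anaphase-promoting complex and its regulators. E2f8, a repressor of the E2F family, had 20.8 and 12.8 in knockout total RNA, against 60.8, 72.4 and 86.2 in WT total RNA, and fell by 2.08 ± 0.23 (adjusted p = 0.000925). E2f2, an activator of that family, had 9.39 and 12.0 in the knockout, against 38.5, 34.8 and 36.5 in the WT, and fell by 1.70 ± 0.16 (adjusted p = 0.000542). Neither gene overlapped between genotypes. The 40 genes of G1/S and DNA replication held 7 falls and 2 rises in total RNA, with a median of −0.17. Their share of falls was near the 18.9% of all genes, and their share of rises was below the 17.9%.

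On polysomes 0 of these 143 genes were called between genotypes by limma, with 19 at an unadjusted p under 0.05, and their median was −0.30. Of all genes limma called 1.62% higher and 0.952% lower, and 15.9% were at an unadjusted p under 0.05. Mybl2, the B-Myb subunit that joins MuvB to switch on G2/M genes, had 26.2, 28.4 and 24.9 in knockout polysomal RNA, against 42.7, 81.1 and 72.4 in WT polysomal RNA, a separation at −1.22 ± 0.28 (adjusted p = 0.0714). Mad2l1, a spindle checkpoint protein, stood at −0.66 ± 0.19 (adjusted p = 0.146). For the G1/S genes 0 of 40 were called, with 23 at an unadjusted p under 0.05 and a median of −0.63, lower than the −0.27 of the G2/M members, whereas in total RNA the G2/M members had the lower median. No test of the difference between the lists was made.

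Polysomal over total RNA, the 143 genes held 2 higher and 1 lower in the knockout and 29 higher and 10 lower in the WT. Over all genes 0.911% were higher and 1.85% lower in the knockout, and 8.89% and 13.8% in the WT. Foxm1, the forkhead factor that drives late cell cycle genes, had 108, 135 and 146 in knockout polysomal RNA, against 55.9 and 40.9 in knockout total RNA, and rose by 1.41 ± 0.25 (adjusted p = 0.029). Spc25, a subunit of the Ndc80 complex, had 82.2, 79.7 and 79.9 in knockout polysomal RNA, against 36.0 and 40.7 in knockout total RNA, and rose by 1.06 ± 0.22 (adjusted p = 0.0424). In the WT the smallest adjusted p-values were those of Cenpq, a centromere protein, at 1.18 ± 0.17 (adjusted p = 0.00494), and Gadd45b, a stress-response gene of G2 arrest, at 1.81 ± 0.28 (adjusted p = 0.00632). For the difference between genotypes they were those of E2f2 at 1.15 ± 0.26 and Haus4, an augmin subunit, at −1.23 ± 0.32 (adjusted p = 0.0795 and 0.101).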

How the data were processed

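Total and polysomal RNA of wild-type and Ddx27-/- C2C12 cells was sequenced by the authors, who deposited 1 table per genotype. Its signal columns are the authors' normalised read counts per gene and library, scaled separately in each table. Divided by a single step per library, 100% of values gave whole reads within 0.001 reads, so each library's reads were recovered. The deposited tables also give gene length, the authors' own log2 fold change between polysomal and total RNA and their FDR, a p-value adjusted over genes. The build mm10 and the tools edgeR, HTSeq and STAR were used, per the submitters' processing notes; versions, library strand and counting rules are not given in the sources used here. The labels list 12 samples, and 11 libraries have values. Knockout library numbers are those of table columns, which match the samples by group only.

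CPM had been foreseen as the unit, and the test chosen for it also suits these values, which are CPM rescaled within each library. Genes that reached a value of 1 in 3 or more libraries were fitted with limma 3.58.1 (R 4.3.3, mean-variance trend) on log2(value + 1), with Benjamini-Hochberg adjustment over all genes tested and a threshold of 0.05. The added 1 shrinks the fold changes of weakly expressed genes. Knockout was set against WT, and the difference between genotypes fitted, on genes listed for both, with all 11 libraries on 1 scale by the median of ratios. edgeR 4.0.16, DESeq2 1.42.0 on the recovered reads, other scalings, filters, pseudocounts and left-out libraries were alternatives. The fits were tested on simulated data. A value of 0 allows up to 3 reads; this covers counting error alone, because PCR copies of a molecule cannot be recognised without molecular identifiers.

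The members and all gene lists were chosen with earlier results of these data known, so no test was made over a list. Values in every library are given for members past the threshold in any of 5 comparisons, at most 20 by smallest adjusted p, and for Cdk1, Ccnb1, Plk1, Aurkb, Mki67 and Top2a; Cenpa, Aurka and Ube2c were added after their values were seen. Of the other lists, the 2 genes with the smallest adjusted p per comparison are named. Promoter windows and coordinates are RefSeq's on GRCm38.p6, matched by symbol. Figures were drawn with matplotlib 3.10.9.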

Additional observations from a re-analysis of the deposited data

How the results depend on the processing

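The results were recomputed under 25 settings. Of the values of called members 0 reversed, while Ube2c, not called in knockout over WT total RNA at −0.07, stood at 0.40 without knockout total library 1, and medians near 0 changed sign. For WT polysomal over total RNA, members called higher were 4 with quantile normalization, where 11.7% of all genes were. They were 4 with CPM without the 4 rRNA-like models counted above (an alternative chosen after seeing the data), against 10.5%. DESeq2 gave 8 against 17.4%. Leaving out the rRNA-rich polysomal library, which here is WT polysomal replicate 2, gave 11 against 22.6%. Members called lower were 0 with CPM without the planned 3 models and 2 without those 4, against 10 and 10.5% of all genes. Leaving out 1 library, the fit without WT polysomal replicate 2 included, gave 0 to 11 higher and 0 to 5 lower. Of all genes 0.683 to 22.6% were then higher and 3.11 to 24.6% lower. In the knockout, 3 members were higher by DESeq2 and 4 with the length trend removed, where 4.45 and 4.81% of all genes were. In each of these 1, Top2a, was lower, against 6.22 and 7.31% of all genes, and 1 with CPM without the planned 3 models, against 3.03%. With rRNA-rich libraries left out, which leaves 1 knockout polysomal library, Top2a stood at −1.41. Leaving out 1 knockout polysomal library gave 0 to 2 higher and 0 to 1 lower, where 0.135 to 7.28% of all genes were higher and 0.168 to 6.41% lower. For knockout over WT total RNA the members' median was −0.65 with either CPM scaling and −0.51 with the length trend removed, and −0.65 to −0.51 with 1 library left out, with 15 to 29 members lower and 0 to 3 higher; 4 were lower in 1 fit over all 11 libraries. Without 1 WT total replicate 15 to 17 members were lower and 0 higher. Of all genes 7.13 to 10.5% were then lower and 6.17 to 10.1% higher. The larger counts came only from fits with 1 knockout total library, whose spread is unknown. In the fit over all 11 libraries 5.79% of all genes were lower. The cause of these differences was not tested. Left-out fits have fewer samples, and where 1 library is left in a group it is assumed to vary like the others. For knockout over WT polysomal RNA, 2 were lower by DESeq2 and in the fit over all 11 libraries, where 3.25 and 3.5% of all genes were. With rRNA-rich libraries left out, 1 knockout polysomal library remained, and the members' median was −0.52. For the genotype difference Kif20b then stood at −0.91. Of single-gene values 430 kept their call and 81 lost it. The noise of low counts limits Cks2, listed near 1 in total RNA.

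Same-numbered WT polysomal and total libraries had deviations with correlations of 0.211, −0.22 and −0.0725 over 12380 genes. Differently numbered ones ranged from −0.313 to 0.262, so these few values neither show nor exclude pairing by number. With the replicate number as a block 2 members were higher and 3 lower, where 5.68% of all genes were higher and 10% lower. Kif20a then stood at −0.78 (adjusted p = 0.0558 by limma). The knockout columns carry no sample number, so no block was fitted there.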
